A study of Drosophila melanogaster with 2 samples.

Results

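The 8 genes described here encode transcription factors of the Drosophila mesoderm and its muscles: twi, Mef2, tin, bap, bin, lmd, nau and slou. They were chosen by name for their known roles. The choice of these genes, and of the gene lists below, was made with earlier results of these data known. The 8 are among the 13945 protein-coding genes on the 6 chromosome arms X, 2L, 2R, 3L, 3R and 4. Their chromatin was assayed by immunoprecipitation with an anti-GFP antibody followed by sequencing, in 1 group of 2 biological replicates, numbered 2 and 3. The embryos were of both sexes and 4 to 14 h old by the source label (the separate age field holds a number of hours too large for an embryo), and came from a transgenic line carrying the repressor E(spl)m8-HLH with GFP at its C-terminus. There was no second genotype, treatment or age, so no condition is compared. The labels do not say which promoter drives the fusion gene. Each replicate list held 30000 peaks, as did a list called on both replicates together (the pooled list), and 6152 peaks formed the authors' optimal set. Read counts were not in the files used, so the depth of each replicate is unknown. The files hold no expression values, so the presence of mesodermal cells was not checked against marker transcripts.

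E(spl)m8-HLH belongs to a family of basic helix-loop-helix repressors that are switched on by Notch signalling, and that recruit the corepressor Groucho. In the mesoderm, Notch signalling singles out muscle progenitors from groups of equivalent cells by lateral inhibition. The 8 factors act at successive steps. Twi, a basic helix-loop-helix activator, specifies the mesoderm, and Mef2, a MADS-box factor, is needed for muscle differentiation. Tin and bap, homeodomain factors of the NK class, and bin, a forkhead factor, act in the dorsal mesoderm that forms the heart and the gut muscle. Lmd, a zinc finger factor of the Gli family, acts in fusion-competent myoblasts, nau is the fly relative of MyoD, and slou is an NK homeodomain factor that marks particular muscle founders.

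The DNA under the strongest summits of tin, bin and nau is shown because these are the leading peaks of 3 of the 8 genes. The strongest pooled summit of lmd, a gene without a peak in the optimal set, is shown beside them as a contrast. Each window reaches 50 bp to either side of the summit, on the plus strand of the Release 6 genome sequence (dm6 coordinates). Capitals mark matches to any of 10 short motifs searched on both strands. Tin is at chr3R:21378701-21378801, bin at chr3L:6989311-6989411, nau at chr3R:23714054-23714154 and lmd at chr3R:23026917-23027017.
tin: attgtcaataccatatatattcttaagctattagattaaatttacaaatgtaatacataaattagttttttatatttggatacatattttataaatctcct
bin: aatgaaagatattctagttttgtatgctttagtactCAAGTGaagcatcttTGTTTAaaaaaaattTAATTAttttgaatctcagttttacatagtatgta
nau: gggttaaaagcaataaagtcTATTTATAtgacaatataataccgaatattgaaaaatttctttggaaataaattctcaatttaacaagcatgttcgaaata
lmd: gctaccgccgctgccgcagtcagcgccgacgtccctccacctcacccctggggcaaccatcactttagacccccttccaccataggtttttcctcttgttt

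Here, bound means that at least 1 peak summit fell inside the annotated gene or no more than 2 kb outside it. In the optimal set 5 of the 8 genes were bound: Mef2 with 6 summits, tin with 2, and bin, nau and twi with 1 each. Bap, lmd and slou had none. Of all protein-coding genes, 36.8% were bound by the same rule. With only summits up to 1 kb from a gene's own TSS counted, tin alone of the 8 was bound, against 23.7% of all protein-coding genes. The leading summits of Mef2 (−1041 bp) and bin (−1261 bp) fell a little outside this limit. Longer genes offer more room for a summit, and the share rose with the length of the gene body. Bap, the shortest member with 1.57 kb, had no summit, and 25.8% of genes under 2 kb were bound. Tin (2.99 kb) and bin (3.83 kb) were both bound, in a class of 2 to 5 kb where 38.7% were. Of lmd, nau and slou, all between 5 and 10 kb, only nau was bound, where 46.6% were. No member is between 10 and 20 kb long, where 58.0% were bound. Twi (63.0 kb) and Mef2 (45.4 kb) were both bound, among genes over 20 kb of which 65.9% were. With 1 to 3 members in a class, these counts are a description without a test. Since chromatin came from whole embryos, strong binding in few cells and weak binding in many cannot be told apart.

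**Figure D1:**
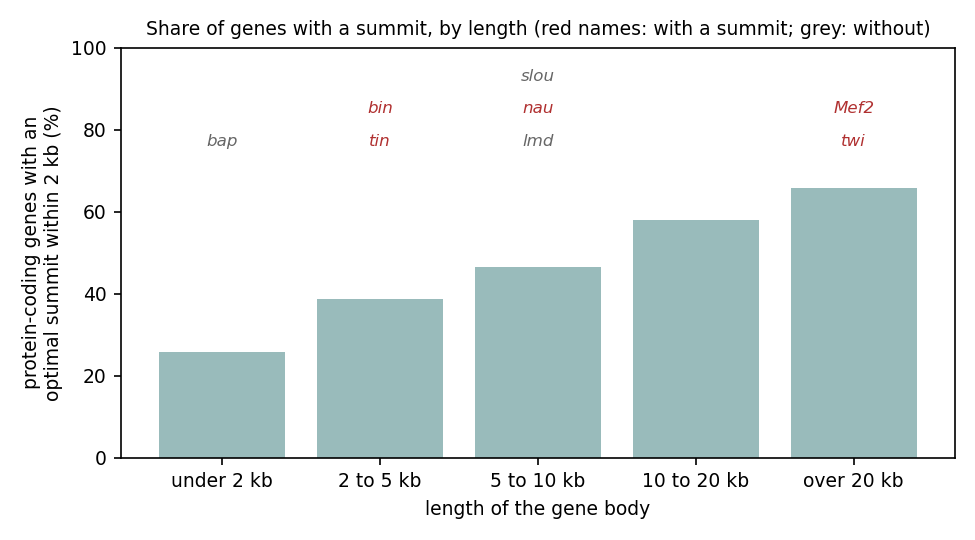
Share of protein-coding genes (%, bars) with an optimal summit in the body or within 2 kb, by length of the gene body, with the 8 genes named above their class. The share was 25.8% under 2 kb and 65.9% over 20 kb; bap, lmd and slou (grey names) had no summit and the other 5 (red names) had at least 1.

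Over the 8 genes and their flanks, 168.3 kb in all, the 11 optimal summits came to 0.654 per 10 kb, against 0.460 over the 6 arms. The arms include sequence between genes, so the 2 densities are not over like sequence. Mef2 alone held 6 of the 11, and Mef2 and twi together 7. The density was 1.22 per 10 kb at Mef2 and 0.149 at twi, so the longest gene had the lowest density among the 5 bound ones. Of the 11 summits, 7 lay in gene bodies and 4 in upstream flanks, and 3 (27.3%) were within 500 bp of a transcription start site (TSS), against 40.2% of the optimal set. The median signal of the 11 was 295.8, against 289.8 for the whole set. The signal is the authors' enrichment value per peak and is used only to describe and rank peaks within a list.

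**Figure D2:**
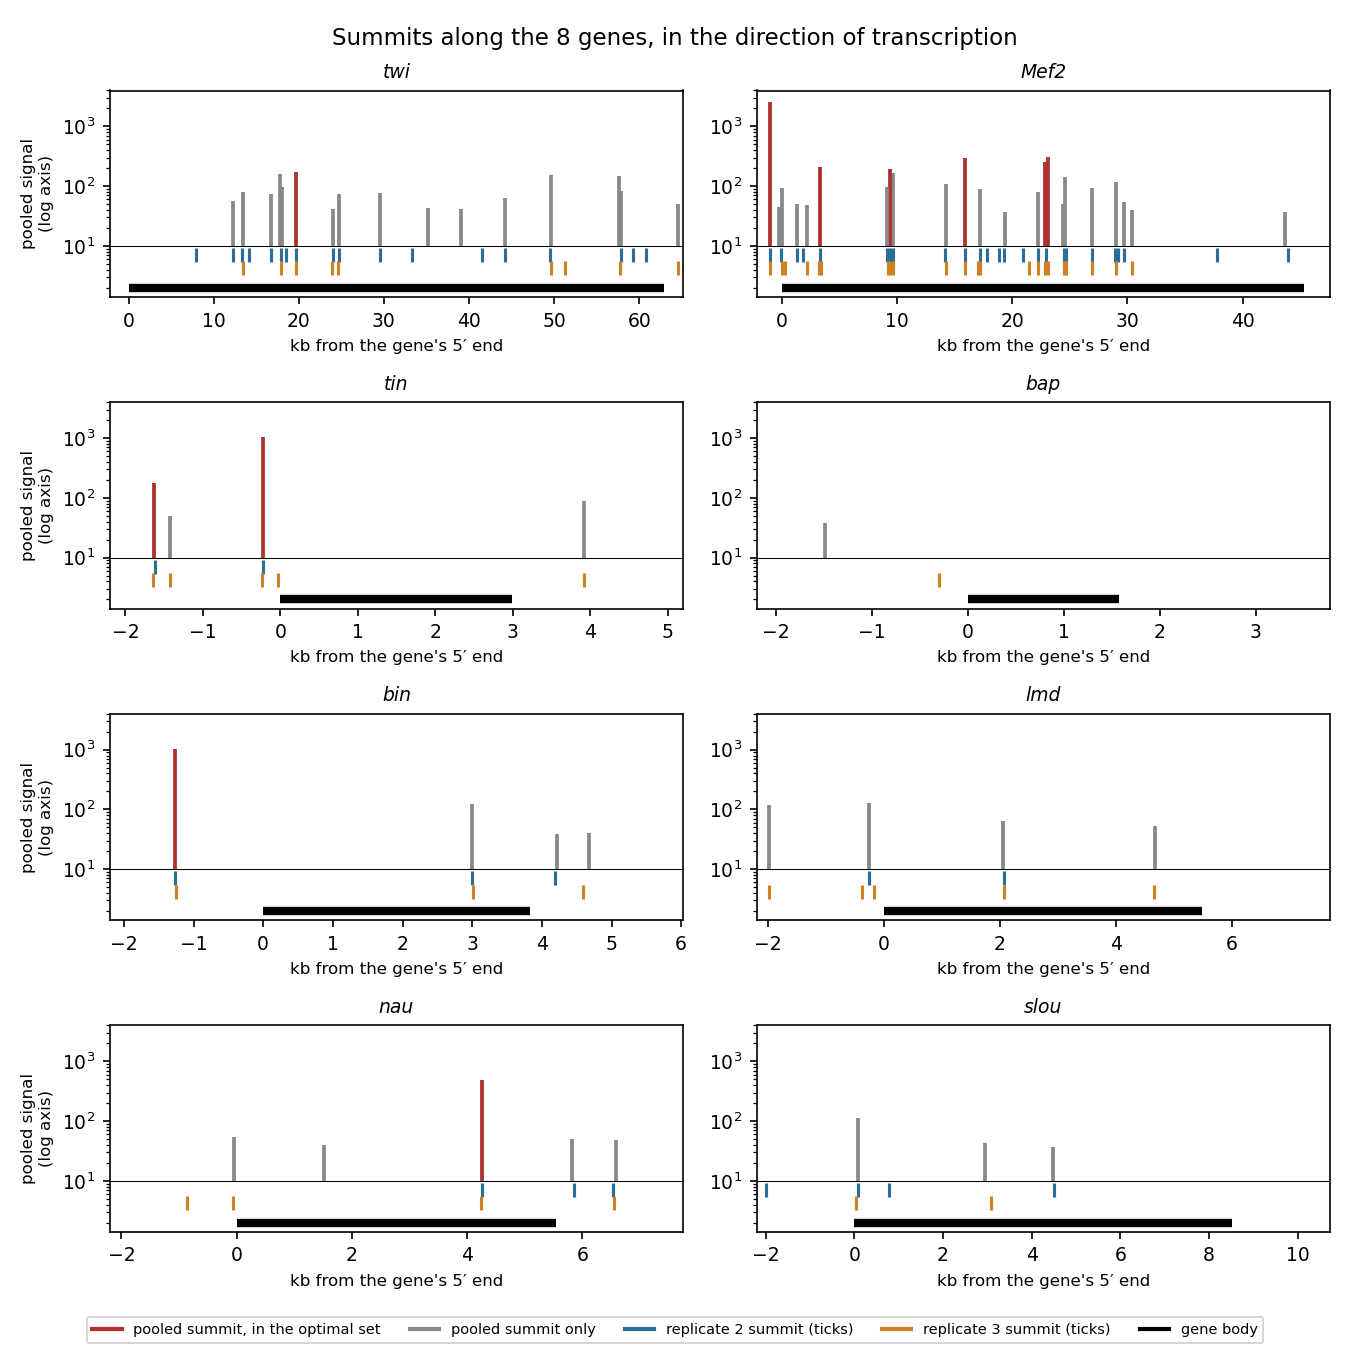
Summits along each gene in kb from its 5′ end: vertical lines give the pooled signal (log axis), red where the peak is in the optimal set and grey where it is not, and the ticks under each panel's line mark replicate 2 and replicate 3 summits above the black bar of the gene body. The strongest line of tin, bin and Mef2 stands upstream of the gene body, that of nau inside it.

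Twi, which starts the mesodermal programme, had 1 optimal summit and it was far from the usual start of the gene. The summit on 2R at 23005039 had a signal of 172.5 and ranked 6004 of 6152. Replicate 2 gave it 93.65 (rank 5448) and replicate 3 gave it 79.83 (rank 7392), and among the strongest 6152 peaks of each replicate twi had 2 summits in replicate 2 and 0 in replicate 3. The annotation gives twi 3 transcripts, and only the longest, which begins at 22985374, spans this intron. Distances to a TSS are negative upstream of it. The summit lay at −41069 bp from the next twi TSS, at 23046108, and its nearest TSS was that of CG9896 (−6155 bp). Around the 2 shorter transcripts (2.22 and 2.00 kb) there was no optimal summit and 1 pooled summit, with a signal of 51.13 at rank 22444 of 30000. Replicate 2 had 2 summits there (best rank 22390), replicate 3 had 1 (rank 12743), and none coincided between them. Along the whole span, replicate 2 had 18 summits and replicate 3 had 9.

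Mef2, the muscle differentiation factor, carried the strongest peak of the 8 genes. It spanned 9959698 to 9960123 on 2R, had its summit at 9959899 and a signal of 2523, and ranked 29 of 6152. It was strong in both replicates, at rank 25 in replicate 2 (signal 1444) and 39 in replicate 3 (1091). This summit lay at −1041 bp from the Mef2 TSS, with start sites of 2 other genes closer to it, at −167 bp from Pdrg1 and at −179 and 350 bp from those of Pal1. Inside the body of Mef2 the strongest summit had 304.5.

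The other 5 optimal summits of Mef2 were weaker and lay within the gene, at signals from 191.1 to 304.5 and ranks from 2858 to 5279. All 5 were nearest to a Mef2 TSS. The ones at 9935736 (304.5) and 9936000 (251.2) were neighbours in intron sequence, at −6121 and −6385 bp from the closest Mef2 start site. The replicates differed at this pair. The peak at 9935736 ranked 2149 in replicate 3 and overlapped no peak of replicate 2, while the one at 9936000 ranked 2641 in replicate 2 and 7735 in replicate 3. A summit at 9942938 (295.8) lay in the 5′ UTR, 1826 bp past a TSS, and ranked 2562 in replicate 2 and 3601 in replicate 3. The remaining summits, at 9955532 (207.3) and 9949462 (191.1), lay in introns and were ranked between 4651 and 6167 in the replicates. Within 500 bp of the 3 Mef2 start sites only pooled summits outside the optimal set were found, the strongest at each having 118.6 (−222 bp), 107.4 (103 bp) and 91.61 (−1 bp).

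Tin, needed for heart and dorsal mesoderm, had a summit just upstream of its only TSS. The peak spanned 21378583 to 21378917 on 3R, with its summit at −226 bp from tin, a signal of 1036 and rank 338. Replicate 2 gave it 486.5 (rank 443) and replicate 3 gave it 542.4 (rank 275), and their summits lay at −227 and −232 bp. It was the only 1 of the 11 summits within 1 kb of a member's own TSS. The other summit counted for tin, with 177.5 (rank 5799), lay at −1631 bp, in the 5′ UTR of the neighbour mod(mdg4), a chromatin protein gene, 55 bp past its TSS. Downstream of tin, a weak pooled summit (88.89, rank 12934) was found in replicate 3 (rank 10915) and not in replicate 2.

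Bin, the forkhead factor of the gut muscle, had a peak almost equal to that of tin. Its summit lay on 3L at 6989361, at −1261 bp from the TSS, with a signal of 1035 (rank 340). Its signal was 473.5 in replicate 2 (rank 464) and 561.8 in replicate 3 (rank 248). No other gene's TSS was within 2 kb of it. A pooled summit in the bin intron, outside the optimal set, had 124.9 (rank 8825).

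Bap, which tin activates and which acts together with bin in the visceral mesoderm, was close to empty within the 2 kb limit. Its only pooled summit, at −1487 bp, had a signal of 37.31 and ranked 29626 of 30000, and it overlapped no peak in either replicate. Replicate 3 had 1 summit of its own there, at −300 bp (32.12, rank 21075), and replicate 2 had none. Outside the limit, the strongest pooled summits nearest to the bap TSS lay at 4719 bp (106.3, rank 10623) and −2580 bp (91.94, rank 12474). The one at 4719 bp overlapped peaks ranked 12444 in replicate 2 and 8965 in replicate 3. The nearest optimal summit was the one at the tin promoter, 10129 bp away.

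Lmd had no optimal summit, but pooled summits stood at both of its start sites. The stronger, at −254 bp from the distal one, had 127.2 (rank 8633), and ranked 11209 in replicate 2 and 7032 in replicate 3. One at the internal start site (−87 bp) had 64.53, and 1 farther upstream (−1989 bp) had 116.9. The upstream peak overlapped peaks ranked 7551 in replicate 2 and 13371 in replicate 3. Replicate 3 listed 5 summits at lmd and replicate 2 listed 2, the summit of its peak at rank 7551 falling outside the 2 kb limit. The closest optimal summit was 22167 bp beyond the gene.

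Nau had its strongest summit deep in the gene body rather than at its start. The peak spanned 23713987 to 23714218 on 3R, in an intron 4253 bp downstream of the nau TSS, with a signal of 487.9 (rank 1427). Replicate 2 gave 237.0 (rank 1603) and replicate 3 gave 247.4 (rank 1376). The nearest TSS, 2577 bp away, belonged to CG10300 and lay beyond the 3′ end of nau. At the nau TSS there was only a weak pooled summit (−43 bp, 53.80, rank 21400), found in replicate 3 and not in replicate 2.

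Slou, the muscle founder factor, had a weak summit 89 bp past its TSS in the 5′ UTR. It had 111.7 in the pooled list (rank 10071), and ranked 15914 in replicate 2 (36.02) and 7179 in replicate 3 (81.53). The nearest optimal summit lay 4323 bp upstream of the gene, outside the 2 kb limit, with a signal of 210.5, and slou was the gene with the closest TSS.

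In the weaker lists nearly all members had a summit, but so did most genes. All 8 had 1 in the pooled list (65.9% of protein-coding genes) and in replicate 3 (66.0%), and 7 had 1 in replicate 2 (69.8%), where bap was the exception. The 8 genes held 60 pooled summits, 57 in replicate 2 and 51 in replicate 3. The pooled density was 3.57 per 10 kb, against 2.24 over the 6 arms.

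**Figure D3:**
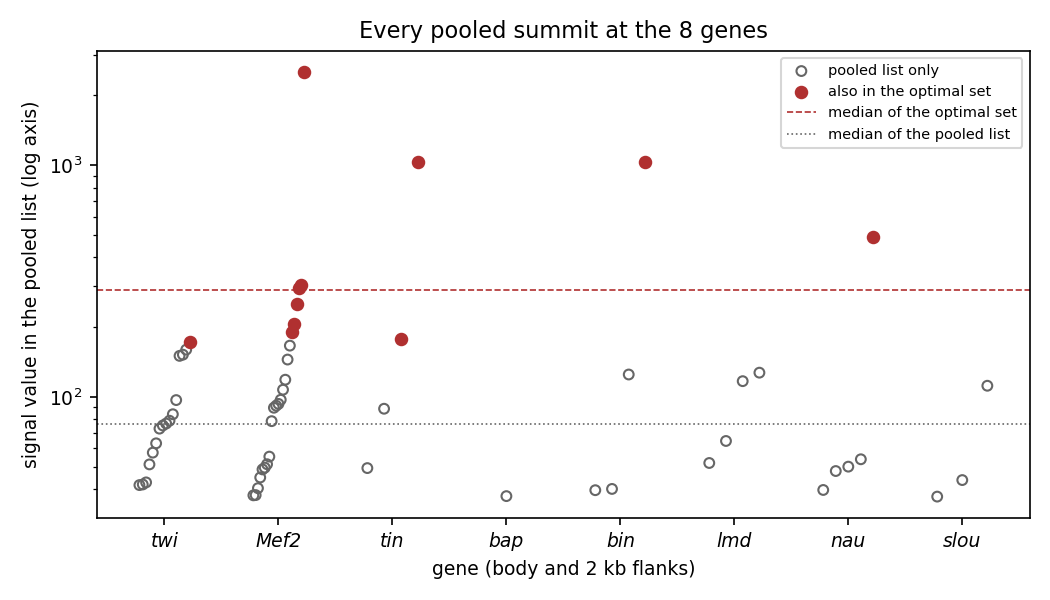
Signal (log axis) of every pooled summit at the 8 genes, filled red where the peak is in the optimal set, with the medians of the 2 lists as lines. One summit of Mef2 reached 2523, and 1 each of tin and bin stood near 1036; no summit of bap, lmd or slou exceeded 127.2.

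Of the 11 optimal peaks at these genes, 10 (90.9%) overlapped a peak in both replicates by at least 1 bp, against 98.5% of the whole optimal set; the exception was the Mef2 intron peak at 9935736. Among those 10, 5 ranked better in replicate 3 and 5 in replicate 2. Of the 60 pooled peaks, 38 (63.3%) overlapped a peak in both replicates, against 74.7% of the pooled list, and 23 of the 38 (60.5%) ranked better in replicate 3, against 46.3% of the pooled list. These shares were not tested, since each replicate is 1 sample and neighbouring peaks can match the same replicate peak.

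**Figure D4:**
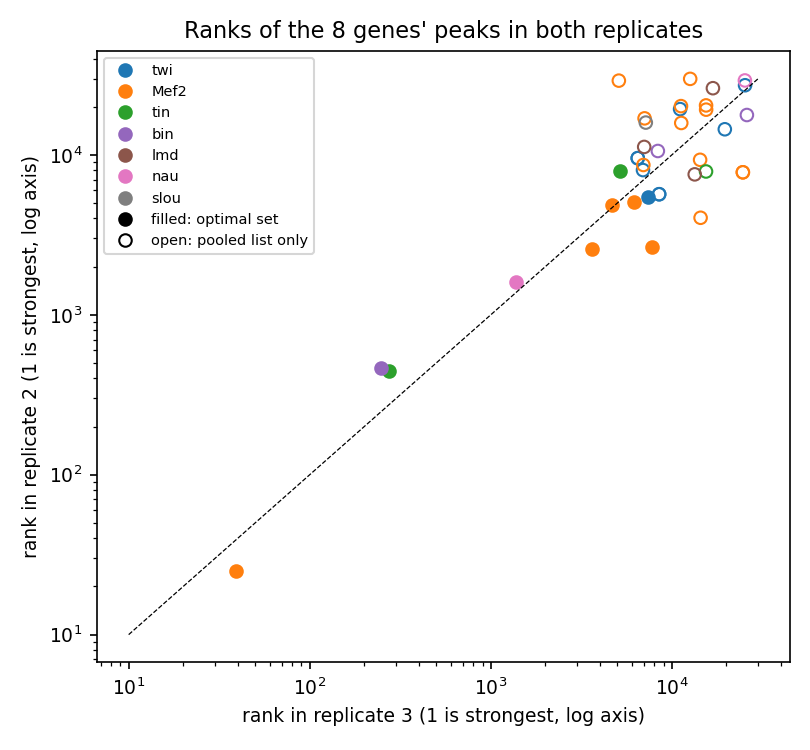
Rank in replicate 2 (vertical) against rank in replicate 3 (horizontal), both on log axes with 1 as the strongest, for the pooled peaks of the 8 genes that overlap a peak in both replicates; filled points are in the optimal set. The strongest peaks of Mef2 (25 and 39), tin (443 and 275), bin (464 and 248) and nau (1603 and 1376) lie near the diagonal.

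The base composition of the windows was looked at after the printed sequences had been seen, and is given as a description. The G+C content of the window was 17.8% at tin, 22.8% at bin, 23.8% at nau and 27.7% at the strongest summit of Mef2, against a median of 32.7% in the optimal set and 28.7% in its 500 strongest peaks. Low values were also found at 2 lower-ranked summits: Mef2 at 9935736 (rank 2858) had 19.8% and twi (rank 6004) had 24.8%. Only 2.28% of the optimal windows had as little G+C as tin. The leading windows of tin, bin, nau and Mef2 had less G+C than both windows 1 kb away. Of the 11 member windows 7 did (63.6%), against 56.0% of the optimal set and 67.4% of its 500 strongest peaks. The window of the strongest lmd summit had 60.4%, and 97.8% of pooled windows had that much or less, with a median of 40.6%. The other strong lmd summit (116.9) had 36.6%, and the leading pooled summits of bap and slou had 48.5% and 51.5%. Over the 11 optimal summits the range was 17.8% to 48.5%, with 6 below the median of the set. Stronger peaks of the whole set also had less G+C, with a median of 30.7% in the stronger 3076 and 35.6% in the weaker 3076.

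**Figure D5:**
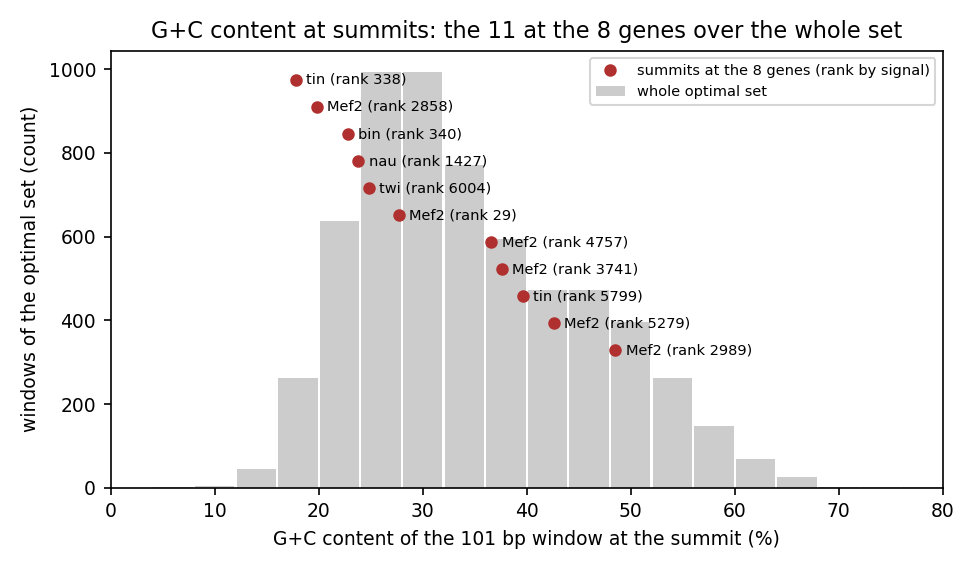
G+C content (%) of the windows within 50 bp of all optimal summits (grey bars, count of windows) and of the 11 summits of these genes (red points, whose height has no meaning, with the rank of each peak by signal). The points for tin (17.8%), bin (22.8%) and nau (23.8%) lie left of the set's median of 32.7%.

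Of the sites bound by Hairy/E(spl) family proteins, only CACGTG and CACGCG were among the 10 motifs searched. Within 50 bp of the summit they were each in 0 of 11 windows, against 2.00% and 3.32% of the optimal set, and 5.20% held at least 1 of them. A window without a match says only that these letters are not in it. Of the E-boxes that Twi and related factors bind, CATATG was in 0 of 11 (4.14% of the set), and CACATG in 1, the Mef2 summit at 9955532 (4.41%). CACTTG, part of sites bound by Tin, was in 1, at bin (5.48%). TATTTATA, an A and T rich sequence of the kind Mef2 binds, was in 1, at nau (4.11%). The forkhead site TAAACA was in 3, at bin and at the Mef2 summits at 9936000 and 9949462 (15.8%). TAATTA, a homeodomain core, was in 1, at bin (9.85%), TGGGAA, the core of sites for Su(H), the Notch pathway's DNA-binding factor, in 1, at Mef2 9936000 (5.59%), and GCAATTA in none (2.28%). The 3 matches in the bin window begin at −14, 1 and 16 bp from the summit on the plus strand, and the tin window held no match to any of the 10 motifs. Within 100 bp of the summit, CATATG was in 2 of 11 (7.83% of the set), at Mef2 9936000 and the leading tin summit. CACATG was then in 2 (8.68%), CACTTG in 2 (11.9%), TGGGAA in 2 (11.1%) and TAAACA in 4 (27.1%), with the other motifs unchanged. Within 25 bp, TGGGAA and TATTTATA were in 0.

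Tin, bap and slou belong to the NK homeobox cluster on 3R, in the order tin, bap, lbl, lbe, C15 and slou. Between 21376977 and 21559182, 182.2 kb, the cluster held 8 optimal summits, 0.439 per 10 kb against 0.460 over the 6 arms. In the pooled list it held 76, which is 4.17 per 10 kb against 2.24. By the 2 kb rule 2 of the 6 cluster genes were bound in the optimal set (33.3%, against 36.8% of all protein-coding genes), tin (1036) and lbl (308.0), a homeodomain gene of heart and muscle. The strongest peak of the region, with 1416 at rank 161, stood between C15 and slou, 141 kb from the tin TSS and at −580 bp from sp3. Its rank was higher in replicate 2 (75) than in replicate 3 (531). The other 4 lay at 103, 109, 115 and 161 kb, with signals from 189.3 to 303.3.

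Of 31 other transcription factor genes of mesoderm and muscle, 24 (77.4%) were bound in the optimal set, with a median of 1 summit a gene. The same figures for all protein-coding genes were 36.8% and 0, but the listed genes are longer, with a median of 12.2 kb against 2.17 kb. The strongest were org-1, a T-box gene of muscle founders (1191, at −361 bp from its TSS), the forkhead gene CHES-1-like (1169, nearest to a long non-coding RNA), zfh1, a zinc finger homeodomain gene (943.8, −1486 bp), and Poxm, a Pax gene of the somatic mesoderm (929.3, −488 bp). Sna, which represses neural genes in the mesoderm, had 2 summits, the stronger at −155 bp from its TSS (474.0; rank 2850 in replicate 2 and 842 in replicate 3). The 7 genes without a summit were the T-box gene Doc3, the heart gene Hand, the homeodomain genes eve, lbe and ara, vg and Cf2. Hand had 1 pooled summit of 39.00, and Cf2 had no summit in any of the 4 lists.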

How the data were processed

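The authors deposited 4 peak lists on dm6, per the labels: the optimal set, thresholded by irreproducible discovery rate per the deposited file lists, a pooled list and 1 list per replicate, called against a control per the deposited file lists. The signal of a peak and its −log10 q-value are the authors' deposited values and were not recalculated. All optimal peaks had a −log10 q-value of 4.21. No p-values were given. Aligner, peak caller and threshold: not given in the sources used here.

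Summits were set against Ensembl annotation release 115 without transposable elements, and the Release 6 sequence, in which every peak lay within its arm. Coordinates are 1-based. Distances are negative upstream. Peaks were matched between lists by at least 1 bp of overlap, taking the nearest summit. No test was made: there is 1 group of 2 samples. The members and lists were chosen with earlier results of these data known. All members are named; of the other lists, the 4 with the strongest summit and, where 10 or fewer, every gene without one (otherwise the first 3 by name). Scripts were tested on made-up genes (Python 3.11.15, pandas 2.3.3, numpy 2.4.6). Alternatives covered flanks, assignment, peak strength, replicates, overlap and motif windows.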

Additional observations from a re-analysis of the deposited data

How the results depend on the processing

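Without flanks, 3 members were bound with 7 summits, as were 15 of the other transcription factor genes and 4 of the contractile genes, against 13.3% of all protein-coding genes. Counting a summit no more than 1 kb from the gene's own start, only tin was bound (1 member of 8, 1 summit, against 23.7% of all genes), with 5 contractile and 2 FGF genes. The stronger 3076 optimal peaks left 4 members bound with 6 summits, against 23.3% of all protein-coding genes. Among only the strongest 6152 peaks of each replicate, 6 of the 11 peaks were found in both. The share of the whole optimal set under this limit is not given here, so the 6 cannot be called low or high. With the body of the shortest transcript, added after the data were seen, 3 members (tin, bin and nau, against 33.3% of genes) had 4 summits. Each of these settings used smaller windows or fewer peaks than the main one, and why single genes or peaks were lost was not tested. Leaving out each replicate put the strongest 6152 peaks of the other in place of the optimal set. It gave 4 to 5 members bound with 9 to 11 summits, 22 to 25 other transcription factor genes, 8 contractile and 4 FGF genes. Of all protein-coding genes, 35.3% were bound without replicate 2 and 38.5% without replicate 3. Without replicate 2 twi had 0 summits, without replicate 3 it had 2 and tin 1. With flanks of 5 kb, slou was also bound (6 members, 15 summits, against 50.9%). With 500 bp or 1 kb, bin was not bound (4 members, against 27.7% and 30.8%). By the nearest TSS, twi and nau had 0 summits and slou 1 (4 members, against 22.4%). Of 157 alternative values 114 were within 1.5 times the main value. That count includes values that were 0 in every setting, such as the summits at bap and lmd. No paired analysis was possible because there is only 1 group. Depth is unknown, so a gene without a summit is not shown to be unbound.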

Other observations

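Of 21 genes of the contractile apparatus, 9 (42.9%) had an optimal summit, with a median of 0 a gene, against 36.8% and 0 for all protein-coding genes. Their median length was 9.11 kb. The strongest were the titin-like gene sls (833.7, at −255 bp from its TSS), the nesprin gene Msp300 (798.6), the Z-disc gene Zasp52 (680.1) and the actin gene Act87E (581.3, at −362 bp). Among the 12 without a summit were Act57B, bt and Mhc, the muscle myosin heavy chain, whose strongest pooled summit had 49.94 (rank 22929); bt, at 52.1 kb, had no summit in any list.

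All 4 genes of FGF signalling in the mesoderm were bound, against 36.8% of all protein-coding genes. Their median length was 22.5 kb. Of genes over 20 kb, such as ths (57.6 kb) and stumps (30.9 kb), 65.9% were bound. The share was 58.0% at 10 to 20 kb, the class of pyr (14.1 kb), and 46.6% at 5 to 10 kb, that of htl (7.77 kb). The adaptor gene stumps had 7 summits, the strongest at −317 bp from its TSS (1150; rank 292 in replicate 2 and 238 in replicate 3). The receptor gene htl had 1, at −331 bp (402.4). The ligand genes ths and pyr had 5 and 2, with at most 580.8 and 223.7. The strongest pyr summit ranked 7672 in replicate 2 and 3139 in replicate 3.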
